A study of Mus musculus with 6 samples.

Results

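The 33 genes described here make up a module of apoptosis and p53 target genes, measured in isolated pancreatic islets. It was chosen from a fixed list of gene symbols. A probe set counted as a member where the platform annotation gave it exactly 1 of these symbols. By this rule 31 of the 33 genes were measured, out of 18193 named genes on the arrays, with 76 probe sets among the 45037 tested. Trp53, which encodes p53 itself, and Bax are not analysed here. Where a gene had several probe sets, the brightest over the 6 arrays was used for it, and the others are given beside it where they differ.

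The study compared islets of wild type mice with islets of hIAPP_Tg mice, which carry human islet amyloid polypeptide (IAPP) as a transgene under an Ins2 (insulin) promoter and so express it in beta cells. There were 3 wild-type arrays (replicates 1 to 3) and 3 hIAPP_Tg arrays (replicates 4 to 6), each from 1 mouse. All mice were 12 weeks old by their labels (the design text gives 10 to 12 weeks) and ate standard chow. The strain given for both genotypes was FVB/N-Tg(Ins2-IAPP)RFHSoel/J. Human IAPP forms amyloid and the mouse protein does not, and the labels do not say how far amyloid had formed, or whether the transgene was on 1 or both chromosomes. The genotype labels were not checked by expression, since mouse Iapp probe sets need not read the human transcript. All values are log2 RMA values (RMA is a background correction and normalization of Affymetrix arrays), and a difference is always hIAPP_Tg minus wild type on that scale.

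Apoptosis is the ordered self-destruction of a cell. In the mitochondrial route, BH3-only proteins sense stress and neutralise the survival proteins of the BCL2 family, after which BAX and BAK open pores in the mitochondrial outer membrane and released cytochrome c assembles APAF1 and caspase-9 into the apoptosome. In the death receptor route, FAS and the TNF and TRAIL receptors recruit FADD and caspase-8. The transcription factor p53, held low by MDM2, responds to DNA damage by switching on genes for arrest, repair and both routes. Loss of beta cells by apoptosis has been described in some models that express human IAPP, and the labels do not say whether it had taken place in these mice. Many steps of both routes are set by protein cleavage, location and stability, which an array does not read.

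Several p53 targets are controlled through a response element of 2 adjoining decamers. A search of the RefSeq promoter windows shows which members hold a match close to an annotated start. Each window covers 250 bases before and 50 bases after an annotated start (GRCm38.p6, a C57BL/6J genome, not the FVB/N of these mice). The search used the p53 decamer consensus, 2 copies with no spacer, with the core letters CNNG required in each decamer and at most 3 mismatches elsewhere. This consensus reads the same on both strands. Of 32851 windows, 1.38% held a match and 0.067% held one with at most 1 mismatch. The 40 windows of 28 members held 5 matches, in Cdkn1a and Ccng1 (1 mismatch each) and in Bbc3, Sesn1 and Trp53 (3 each). The 4 below belong to genes that were measured, and are shown because their expression values can be set beside the element. Each is written 5′ to 3′ on the strand of its gene, with the 20 bases of the match in capitals.
Cdkn1a: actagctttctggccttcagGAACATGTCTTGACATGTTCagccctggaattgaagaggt
Ccng1: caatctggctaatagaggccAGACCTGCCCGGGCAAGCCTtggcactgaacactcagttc
Bbc3: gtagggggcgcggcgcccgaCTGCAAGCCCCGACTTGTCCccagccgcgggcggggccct
Sesn1: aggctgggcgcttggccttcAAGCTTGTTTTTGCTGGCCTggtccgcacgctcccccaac
The stretch of Cdkn1a is chr17:29090908-29090967 on the plus strand, with the match 51 to 32 bases before an annotated start. That of Ccng1 is chr11:40755442-40755501 on the minus strand, with the match 195 to 176 bases before the start. That of Bbc3 is chr7:16309466-16309525 on the plus strand (97 to 78 bases before), and that of Sesn1 chr10:41887246-41887305 on the plus strand (173 to 154 bases before). Cdkn1a, Bbc3 and Sesn1 have further annotated starts, whose windows held no match, and which start is used in islets was not tested. A match of letters does not show that p53 binds there in islets. Between the genotypes these 4 genes lay on both sides of 0, at -0.17 for Cdkn1a, 0.17 for Ccng1, -0.033 for Bbc3 and 0.23 for Sesn1.

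The arrays were alike in overall level, with a median of 5.7 on all 6, and their number limits the precision. The islet label was borne out by the hormone genes: Ins2 stood at 15.1 on every array, Gcg at 14.7 to 14.8 and Sst at 14.0 to 14.2. The highest value of each array was also 15.1, so the equal Ins2 values need not mean equal levels. Markers of macrophages and dendritic cells were higher in hIAPP_Tg islets. Wild-type arrays averaged 7.04 to 7.20 over 20 such markers and hIAPP_Tg arrays 8.06 to 8.21. Of the 20, 3 passed the limma test after adjustment and 16 did not overlap between genotypes, beside 0.044% and 7.7% of all genes. Cd68 did not overlap, at 5.10 on each wild-type array and at 6.5 to 7.5 on the hIAPP_Tg arrays. It did not pass (limma adjusted p = 0.15). The mean over 15 acinar markers differed by -0.88 between genotypes, which overlapped, and varied within both. It ran from 10.37 to 11.92 in wild type and from 9.27 to 11.39 in hIAPP_Tg, and stood at 10.37 on wild_type replicate 1. That array also had the highest mean over 9 stellate cell and fibroblast markers, 9.13 against 8.40 to 8.66 on the other arrays. The 11 lymphocyte markers averaged 5.03 to 5.15, under the array median. What part these cells have in the values below was not tested. In such bulk tissue, fewer cells of a type and less RNA per cell cannot be told apart.

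Averaged over the 31 apoptosis and p53 target genes, the wild-type arrays stood at 7.39, 7.35 and 7.33 and those of hIAPP_Tg mice at 7.33, 7.36 and 7.38. The ranges of these array means overlapped, and the genotype means differed by 0. Of the 31 genes, 15 lay above 0, 4 at 0 and 12 below, with a median difference of 0, which is also the median over all 18193 genes. The single differences ran from -0.27 for Casp12 to 0.23 for Sesn1. A total of 94.3% of all genes differed by no more than 0.27, so this band is no property of the module. The median size of a member's difference, with the sign dropped, was 0.10, against 0.067 over all genes.

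**Figure D1:**
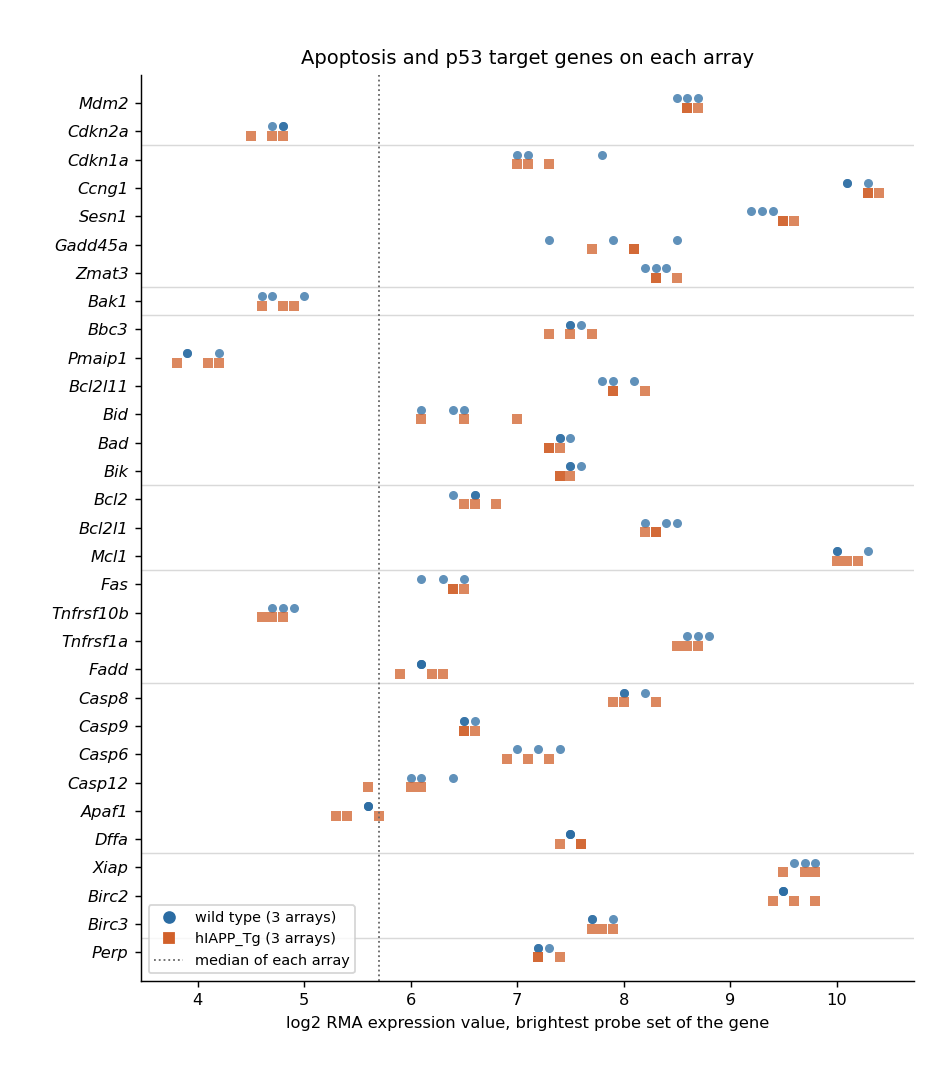
Log2 RMA values of the 31 measured genes on each array, with wild-type arrays as blue circles and hIAPP_Tg arrays as orange squares, grouped by role (grey lines); the dotted line is the array median of 5.7. The genotypes overlap for every gene but Sesn1, and Gadd45a and Cdkn1a show the widest wild-type spread.

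None of the 31 genes passed the test between genotypes, and none of the 76 probe sets did (limma with Benjamini-Hochberg adjustment over all 45037 probe sets at 0.05). The lowest limma adjusted p was 0.552 among the brightest probe sets (Sesn1) and 0.503 over all 76 (a dim probe set of Xiap). By the same rule, 0.044% of all genes and 0.0289% of all probe sets passed. At an unadjusted p under 0.05 there was 1 member, Sesn1, higher in hIAPP_Tg islets, and 0 that were lower. Of all genes, 8.48% met this p (5.02% higher and 3.45% lower). Sesn1 was also the 1 member whose genotypes did not overlap, as was the case for 7.7% of all genes. These shares of the members were not above the background. The count at the unadjusted p moved with single arrays. It was 3 higher without wild_type replicate 1 (Sesn1, Ccng1 and Fas) and 3 without hIAPP_Tg replicate 4 (Sesn1, Fadd and Birc2). It was 1 lower without wild_type replicate 2 (Bcl2l1) and 1 without hIAPP_Tg replicate 6 (Apaf1). The share of all genes that were higher was 5.40% and 7.13% in the first pair of settings, and that of lower genes 3.84% and 4.16% in the second.

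A missed threshold does not show that levels were equal, and the intervals show what the arrays could not separate from 0. For 27 of the 31 genes the 95% interval of the difference on the brightest probe set stayed within 1.5-fold in either direction. The other 4 were Cdkn1a, Gadd45a, Bid and Casp12. The interval had a median width of 0.25 to either side of the difference, from 0.15 for Bad, Bik and Casp9 to 0.73 for Gadd45a. Only that of Sesn1 did not include 0. These intervals are not adjusted for the number of genes. Bcl2l11 and Xiap, counted among the 27, had dimmer probe sets whose intervals crossed 1.5-fold, such as -0.39 to 1.12 and -1.20 to 0.46. Cdkn2a, Bak1, Pmaip1, Tnfrsf10b and Apaf1, also among the 27, lay under the array median. Differences may be compressed there, so a narrow interval says less. Of all genes on the arrays, 1.09% differed by 1.5-fold or more, and 0 of the members did.

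**Figure D2:**
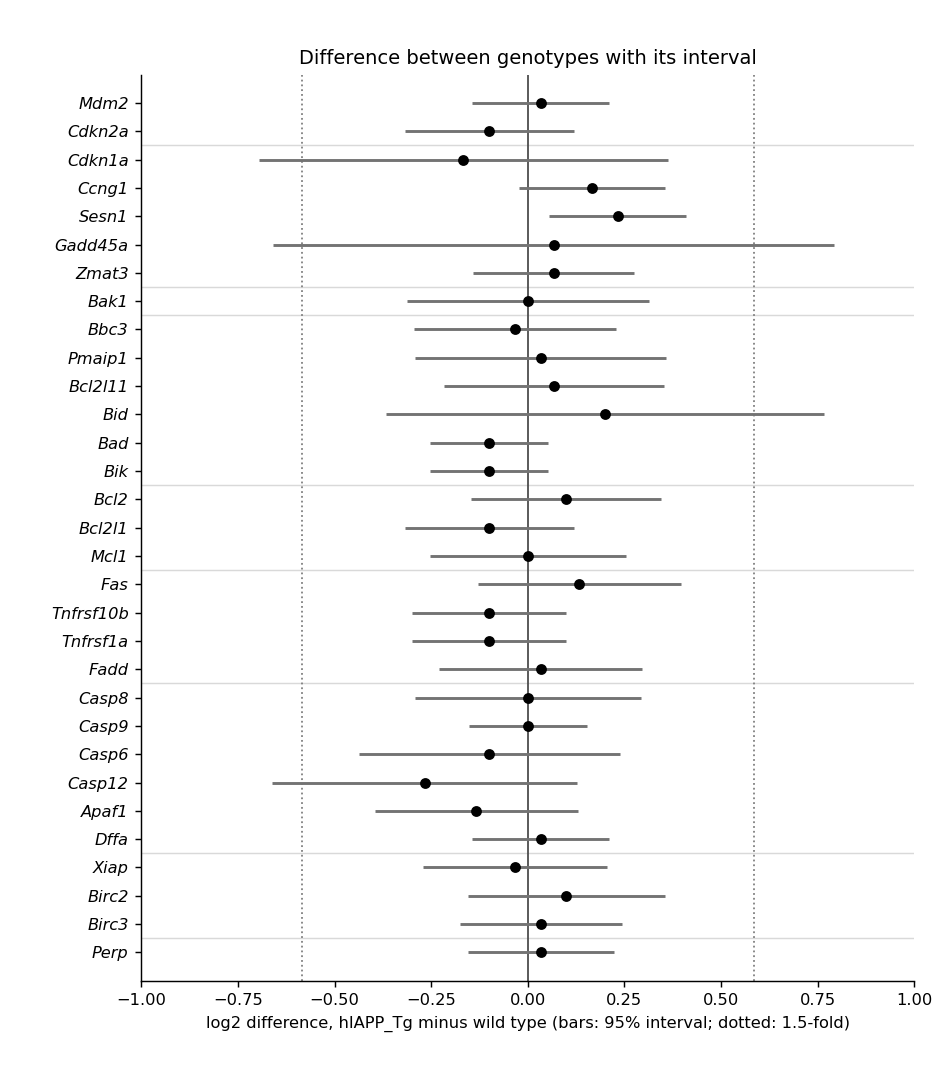
Difference of each gene on the log2 scale, hIAPP_Tg minus wild type, as a point with its 95% interval from limma (3 arrays per genotype); dotted lines mark 1.5-fold. The interval of 30 of the 31 genes includes 0, and 4 intervals cross a 1.5-fold line.

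Of the direct regulators of p53, Mdm2 and Cdkn2a were measured. Mdm2 encodes the ubiquitin ligase that marks p53 for destruction and is itself a p53 target, so its transcript is often read as a sign of p53 activity. It stood at 8.5, 8.6 and 8.7 in wild type and at 8.6, 8.7 and 8.6 in hIAPP_Tg islets. The values overlapped fully, with a difference of 0.033 (95% interval -0.14 to 0.21, limma adjusted p = 0.908). Its other probe sets differed by -0.13 and 0. Cdkn2a, the locus of a CDK inhibitor that accumulates in ageing beta cells and of the MDM2 antagonist ARF, differed by -0.10 on its single probe set. At 4.77 in wild type it lay under the array median, where a signal may be background, which also holds for Bak1, Pmaip1, Tnfrsf10b and Apaf1. RMA compresses differences at that level.

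Among the p53 targets of arrest and repair, Cdkn1a encodes p21, the CDK inhibitor through which p53 halts division. It was at 7.8, 7.1 and 7.0 in wild type and at 7.1, 7.0 and 7.3 in hIAPP_Tg islets. The hIAPP_Tg arrays lay within the wild-type range, and wild_type replicate 1 stood highest. The difference was -0.17 (95% interval -0.70 to 0.36, limma adjusted p = 0.87), and without wild_type replicate 1 it was 0.083. The second probe set showed the same array on top, at 7.4 against 6.7 on both other wild-type arrays, and differed by -0.27. A fall of Cdkn1a of up to 1.62-fold and a rise of up to 1.29-fold lay within its interval.

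Gadd45a, a growth arrest gene induced by DNA damage, had the widest spread of the module. Its values were 7.3, 8.5 and 7.9 in wild type and 7.7, 8.1 and 8.1 in hIAPP_Tg islets, a wild-type range of 1.2 that enclosed all hIAPP_Tg values. It differed by 0.067 (95% interval -0.66 to 0.79), by -0.23 without wild_type replicate 1 and by 0.37 without wild_type replicate 2. In Gadd45a wild_type replicate 1 was the lowest array, and in Cdkn1a it was the highest.

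Sesn1 encodes sestrin 1, a stress protein that restrains mTOR signalling. It was at 9.4, 9.2 and 9.3 in wild type and at 9.6, 9.5 and 9.5 in hIAPP_Tg islets. Every hIAPP_Tg array lay above every wild-type array, by 0.1 or more, which is the step to which the values are rounded. The means were 9.30 ± 0.10 and 9.53 ± 0.058 (SD, n = 3 each). The difference of 0.23 is 1.18-fold (SE 0.073, 95% interval 0.056 to 0.41; limma adjusted p = 0.552, so it did not pass). With quantile normalization it was 0.19, at an unadjusted p of 0.0684 in limma. The other 3 probe sets of Sesn1 were also higher, by 0.27, 0.13 and 0.067, and overlapped or tied between genotypes. The second reads 8.1, 8.2 and 8.4 against 8.7, 8.4 and 8.4. Without each array in turn the difference of the brightest probe set was 0.18 to 0.28.

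Ccng1, a cyclin induced by p53 that acts back on MDM2, was at 10.3, 10.1 and 10.1 in wild type and at 10.3, 10.4 and 10.3 in hIAPP_Tg islets. The genotypes met at 10.3, on wild_type replicate 1. All 3 of its probe sets were higher, by 0.13 to 0.17, and the brightest had a 95% interval of -0.022 to 0.36 (limma adjusted p = 0.632). Without wild_type replicate 1 its difference was 0.23, and over all 6 such settings it was 0.13 to 0.23. Zmat3, an RNA-binding zinc finger protein and p53 target, differed by 0.067 and Perp, a p53 target of the cell membrane found at desmosomes, by 0.033. Both overlapped, and their 95% intervals were -0.14 to 0.28 and -0.16 to 0.22.

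**Figure D3:**
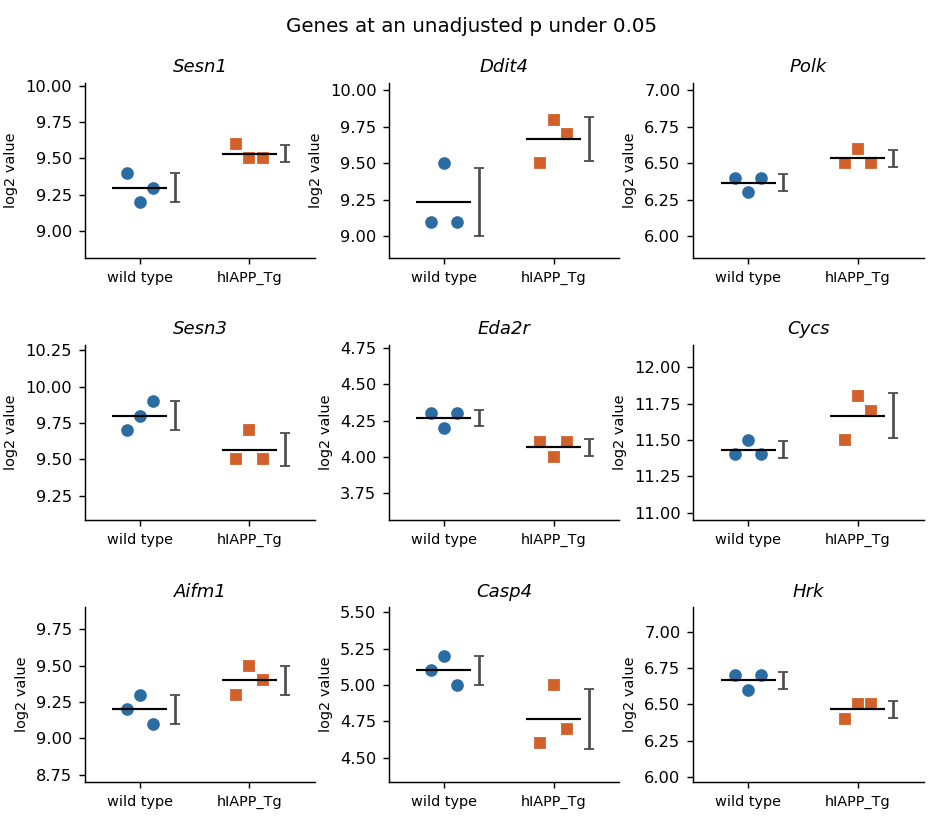
Log2 values on each array of Sesn1 and of the 8 genes from the wider p53 and apoptosis lists that had an unadjusted p under 0.05 in limma; horizontal lines are means and bars are SD (n = 3 per genotype), and each panel spans the same height of 1.2. None passed after adjustment, and the genotypes do not overlap for Sesn1, Polk, Eda2r and Hrk. The genes shown were picked by that p. Of the 40 measured genes of the wider p53 list 1 was higher and 1 lower without overlap. Of the 42 of the wider apoptosis list 2 were lower without overlap, beside 7.7% of all genes in either direction.

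Of the pore formers, Bak1 was at 4.7, 4.6 and 5.0 in wild type and at 4.9, 4.8 and 4.6 in hIAPP_Tg islets, all under the array median. Its difference was 0 (95% interval -0.31 to 0.31), and its second probe set differed by -0.067.

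The BH3-only genes, which start the mitochondrial route, lay on both sides of 0, with 3 above and 3 below. Bbc3 encodes PUMA and Pmaip1 encodes NOXA, both induced by p53. Bbc3 differed by -0.033 (95% interval -0.30 to 0.23) and Pmaip1, at 3.8 to 4.2 on all arrays, by 0.033 (-0.29 to 0.36). Bcl2l11, which encodes BIM and is used in the death of beta cells under several stresses, differed by 0.067 on its brightest probe set (-0.22 to 0.35). Another of its 5 probe sets read 7.9, 6.6 and 7.3 in wild type and 7.5, 7.8 and 7.6 in hIAPP_Tg islets. Its hIAPP_Tg arrays lay close together inside a wide wild-type range, and its difference of 0.37 had a 95% interval of -0.39 to 1.12. Bid, which caspase-8 cleaves to link the death receptors to mitochondria, was at 6.4, 6.5 and 6.1 against 6.1, 7.0 and 6.5. Here hIAPP_Tg replicate 5 stood alone on top. The difference of 0.20 (-0.37 to 0.77) was -0.033 without that array, and the remaining 2 probe sets of Bid differed by -0.033 and 0.067. Bad, whose product is held inactive by phosphorylation, and Bik each differed by -0.10 (-0.25 to 0.052). Both had probe sets on either side of 0, at 0.10 for the second of Bad and 0.067 for the remaining 2 of Bik.

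The survival genes of the BCL2 family had a mean difference of 0. Bcl2 was at 6.4, 6.6 and 6.6 in wild type and at 6.5, 6.8 and 6.6 in hIAPP_Tg islets on its brightest probe set, which overlapped and differed by 0.10 (-0.15 to 0.35, limma adjusted p = 0.818). The other 4 probe sets of Bcl2 were lower, by -0.033 to -0.27, so that with all 5 averaged the difference was -0.10. The one with -0.27 was at 4.4, 4.6 and 4.7 against 4.4, 4.3 and 4.2, under the array median on all arrays (limma adjusted p = 0.62). No direction can be given for Bcl2 from these probe sets. Bcl2l1, which encodes BCL-XL, an abundant survival protein of beta cells, differed by -0.10 (-0.32 to 0.12), with 3 of its 4 probe sets lower and 1 higher. Mcl1, a survival protein of rapid turnover, was at 10.0, 10.3 and 10.0 in wild type and at 10.0, 10.1 and 10.2 in hIAPP_Tg islets, a difference of 0 (-0.25 to 0.25). Of its 6 probe sets 4 were higher and 2 at 0, up to 0.23 for one that read 7.5, 7.9 and 7.7 against 7.8, 8.0 and 8.0.

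The death receptors differed little. Fas, the receptor for FAS ligand and a p53 target, was at 6.5, 6.3 and 6.1 in wild type and at 6.5, 6.4 and 6.4 in hIAPP_Tg islets, which overlapped. Its difference was 0.13 (-0.13 to 0.40, limma adjusted p = 0.791), and 0.23 without wild_type replicate 1. Tnfrsf10b, the mouse TRAIL receptor, differed by -0.10 at a level under the array median (4.6 to 4.9 on all arrays). Tnfrsf1a, the main TNF receptor of most cells, differed by -0.10 (-0.30 to 0.099), from 8.6 to 8.8 in wild type and from 8.5 to 8.7 in hIAPP_Tg islets. Their adaptor Fadd was at 6.1 on each wild-type array and at 5.9, 6.3 and 6.2 on the hIAPP_Tg arrays. The 3 identical wild-type values lay inside the hIAPP_Tg range, and the difference was 0.033 (-0.23 to 0.30).

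Caspases and apoptosome genes held the lowest difference of the module, in Casp12. Caspase-12 is tied to the endoplasmic reticulum and has been linked to stress of that compartment in rodents. It was at 6.4, 6.0 and 6.1 in wild type and at 6.1, 5.6 and 6.0 in hIAPP_Tg islets. The highest array was a wild-type one and the lowest an hIAPP_Tg one, but the genotypes overlapped at 6.0 to 6.1. The difference was -0.27 (SE 0.16, 95% interval -0.66 to 0.13, limma adjusted p = 0.72). Its second probe set differed by -0.30, with values of 5.9, 5.2 and 5.4 against 5.3, 5.2 and 5.1. On both probe sets wild_type replicate 1 was highest. Without each array in turn the difference of the brightest one was -0.37 to -0.12.

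Casp8, the initiator of the death receptor route, differed by 0 (-0.29 to 0.29). So did Casp9, the initiator of the mitochondrial route, on its brightest probe set, with values of 6.5, 6.5 and 6.6 against 6.6, 6.5 and 6.5 (-0.15 to 0.15). A further Casp9 probe set, far under the array median, read 4.5, 4.6 and 4.5 in wild type and 4.4, 4.3 and 4.4 in hIAPP_Tg islets. It did not overlap, by 1 rounding step, and differed by -0.17 (limma adjusted p = 0.62), while the remaining probe set differed by 0.10. The executioner Casp6 differed by -0.10 on both probe sets (-0.44 to 0.24 for the brighter). Apaf1, the scaffold of the apoptosome and a p53 target, was at 5.6 on each wild-type array and at 5.4, 5.3 and 5.7 on the hIAPP_Tg arrays, a difference of -0.13 (-0.40 to 0.13). It was -0.25 without hIAPP_Tg replicate 6. Dffa, which encodes the inhibitor of the nuclease that cuts DNA in dying cells, differed by 0.033 (-0.14 to 0.21).

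The inhibitors of apoptosis bind caspases or act in TNF receptor signalling. Xiap, the direct caspase inhibitor, was at 9.8, 9.6 and 9.7 in wild type and at 9.8, 9.5 and 9.7 in hIAPP_Tg islets on its brightest probe set, nearly the same set of values, with a difference of -0.033 (-0.27 to 0.20). Of its 7 probe sets 6 were lower and 1 higher. One of them read 3.9 on each wild-type array and 3.7 on each hIAPP_Tg array, a difference of -0.20 (limma adjusted p = 0.503) far under the array median, where a signal may be background. Another read 7.2, 5.8 and 6.2 against 5.9, 6.2 and 6.0, with wild_type replicate 1 alone on top (-0.37, -1.20 to 0.46). Birc2 encodes cIAP1, a ubiquitin ligase of the TNF receptor complex. It was at 9.5 on each wild-type array and at 9.4, 9.6 and 9.8 on the hIAPP_Tg arrays, a difference of 0.10 (-0.15 to 0.35). Birc3, which encodes cIAP2 and is a target of NF-kappa-B, differed by 0.033 (-0.18 to 0.24), and its second probe set by -0.10.

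Of the 21 genes with several probe sets, 8 had all of them on the same side of 0. They were Cdkn1a, Tnfrsf10b, Casp6, Casp12 and Apaf1, all lower, and Ccng1, Sesn1 and Fadd, all higher. A further 10 had probe sets on both sides, and 3 had some at 0 and the rest on 1 side. Of all 76 probe sets, 4 had an unadjusted p under 0.05 in limma, with 1 higher (Sesn1) and 3 lower (Bcl2, Casp9 and Xiap). Of all 45037 probe sets, 7.33% met this p (3.82% higher and 3.51% lower). The 3 lower ones were probe sets under the array median and were not the brightest of their gene, and the brightest probe sets of these genes differed by 0.10, 0 and -0.033.

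**Figure D4:**
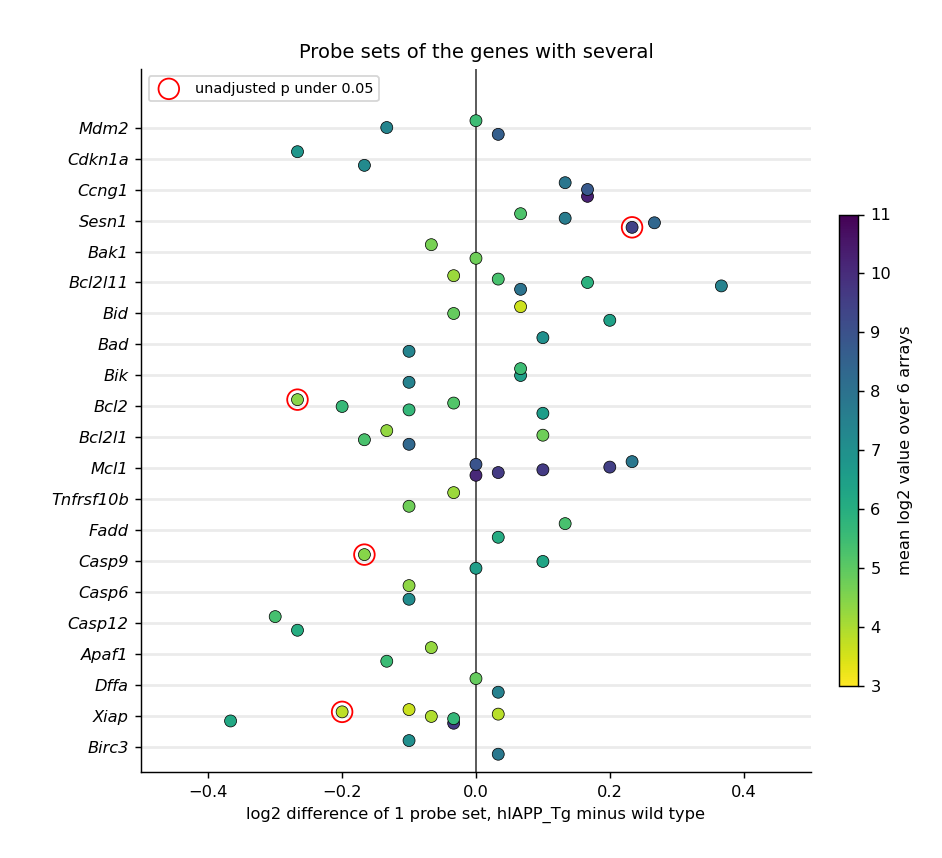
Difference of every probe set of the 21 genes with several, hIAPP_Tg minus wild type on the log2 scale, coloured by the mean level over the 6 arrays and set slightly apart in height; red rings mark an unadjusted p under 0.05 in limma. All probe sets of Sesn1 and Ccng1 lie above 0, and the ringed probe sets of Bcl2, Casp9 and Xiap are at low levels.

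Of 42 further p53 pathway genes 40 were measured, with differences of -0.37 to 0.43, 20 above 0, 5 at 0 and 15 below and a median of 0.017. None passed in limma after adjustment. At an unadjusted p under 0.05, 2 were higher and 2 lower, beside 5.02% and 3.45% of all genes. The mean over this list overlapped between genotypes, at 7.74 to 7.79 in wild type and 7.75 to 7.83 in hIAPP_Tg islets. The count of higher genes was 4 when wild_type replicate 1 was left out and 5 when hIAPP_Tg replicate 4 was. Of all genes, 5.4% and 7.13% were higher at an unadjusted p under 0.05 in those fits. The count was 1 when wild_type replicate 3 or hIAPP_Tg replicate 6 was left out, beside 3.91% and 4.62% of all genes. That of lower genes was 1 without wild_type replicate 2, beside 3.84% of all genes.

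Ddit4, which like the sestrins restrains mTOR signalling and responds to several stresses, was at 9.1, 9.5 and 9.1 in wild type and at 9.5, 9.8 and 9.7 in hIAPP_Tg islets. The genotypes met at 9.5, on wild_type replicate 2, and the difference was 0.43 (SE 0.14, 95% interval 0.10 to 0.77, limma adjusted p = 0.557). Polk, a DNA polymerase that copies past lesions, was at 6.4, 6.3 and 6.4 against 6.5, 6.6 and 6.5, without overlap. It differed by 0.17 (limma adjusted p = 0.62), and its second probe set by 0. Sesn3, a sestrin under FOXO control, was at 9.7, 9.8 and 9.9 against 9.5, 9.7 and 9.5. Its difference of -0.23 (limma adjusted p = 0.62) thus had the opposite sign to that of Sesn1, and its second probe set differed by 0.067. Eda2r, a TNF receptor family member induced by p53, was at 4.3, 4.2 and 4.3 against 4.1, 4.0 and 4.1, without overlap but under the array median (-0.20, limma adjusted p = 0.552).

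Of 46 further apoptosis genes 42 were measured, with differences of -0.43 to 0.40, 24 above 0, 6 at 0 and 12 below and a median of 0.050. None passed in limma after adjustment, and at an unadjusted p under 0.05, 2 were higher and 2 lower, again beside 5.02% and 3.45% of all genes. The count of higher genes was 6 when wild_type replicate 2 was left out and 4 when hIAPP_Tg replicate 4 was. It was 1 when wild_type replicate 1 or 3 was left out, and 0 when hIAPP_Tg replicate 5 was. That of lower genes was 1 when either wild_type replicate 2 or hIAPP_Tg replicate 6 was left out. Over all genes the higher share was 7.09% without wild_type replicate 2 and 7.13% without hIAPP_Tg replicate 4, and 3.91% to 5.40% without each other array, while the lower share was 3.06% to 4.60%. The list mean was 7.71 to 7.83 in wild type and 7.73 to 7.82 in hIAPP_Tg islets, which overlapped.

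The higher genes were Cycs and Aifm1. Cycs, cytochrome c, a carrier of the respiratory chain that assembles the apoptosome once released, was at 11.4, 11.5 and 11.4 in wild type and at 11.5, 11.8 and 11.7 in hIAPP_Tg islets. The genotypes met at 11.5, and the difference was 0.23 (limma adjusted p = 0.62), with 1 of its 4 probe sets lower, by -0.17. With its probe sets averaged the difference was 0.083. Aifm1, apoptosis-inducing factor, was at 9.2, 9.3 and 9.1 against 9.3, 9.5 and 9.4 and differed by 0.20 (limma adjusted p = 0.632). The lower genes were Casp4 and Hrk. Casp4, an inflammatory caspase that senses bacterial lipopolysaccharide, was at 5.1, 5.2 and 5.0 against 4.6, 5.0 and 4.7, under the array median, and differed by -0.33 (limma adjusted p = 0.607). Hrk, a BH3-only gene of neurons, was at 6.7, 6.6 and 6.7 against 6.4, 6.5 and 6.5, without overlap (-0.20, limma adjusted p = 0.552), and its second probe set differed by -0.033.

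**Figure D5:**
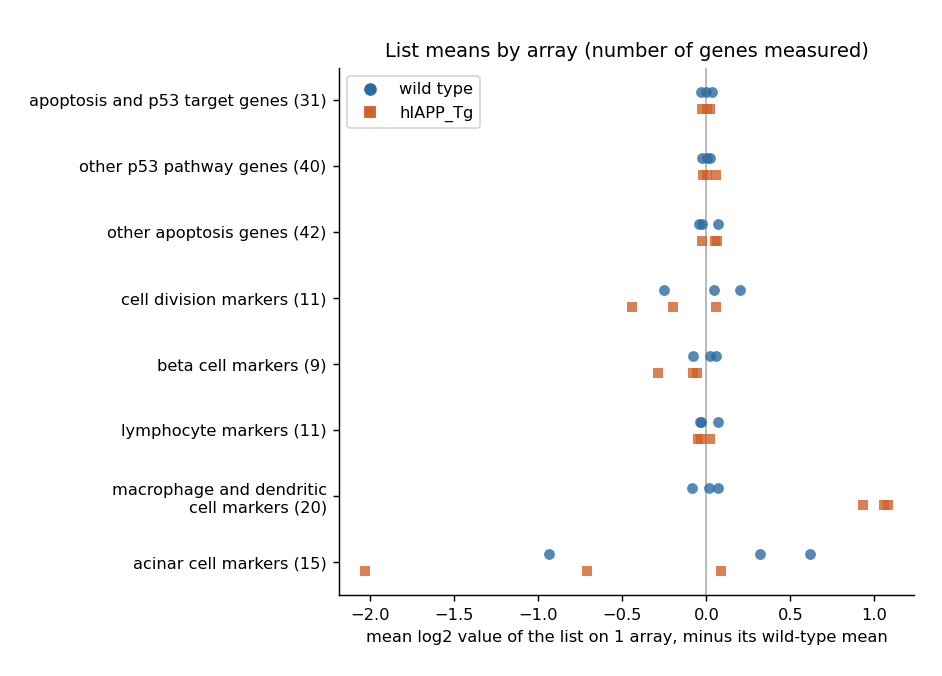
Mean log2 value of the gene lists shown on each array, minus the mean of the 3 wild-type arrays, with the number of genes measured in brackets (blue circles wild type, orange squares hIAPP_Tg). The alpha, delta and PP cell, endothelial, stellate cell and fibroblast, and duct cell markers are not plotted. The apoptosis and p53 target genes lie within 0.034 of 0 on every array, while the macrophage and dendritic cell markers average 1.02 higher on the hIAPP_Tg arrays.

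Cell marker lists are given beside the module for comparison. The mean over the macrophage and dendritic cell markers differed by 1.02 between genotypes, and that over the 31 apoptosis and p53 target genes by 0. Cell division markers, which p53 and Cdkn1a restrain, overlapped between genotypes: the mean over 11 of them was 6.57, 6.42 and 6.12 in wild type and 6.17, 5.93 and 6.43 in hIAPP_Tg islets. Beta cell markers averaged 12.77 to 12.90 in wild type and 12.56 to 12.79 in hIAPP_Tg islets, which overlapped. Without overlap, and lower in hIAPP_Tg islets, were the means over 5 alpha, delta and PP cell markers (11.76 to 11.80 against 11.60 to 11.68) and over 9 endothelial markers (8.02 to 8.10 against 7.92 to 8.01). The endothelial ranges lay apart by less than the 0.1 to which values are rounded. Of the 5, 3 lay below 0, 1 at 0 and 1 above, and 2 did not overlap. Of the 9, 4 lay below 0, 3 at 0 and 2 above, with a median of 0, and 1 did not overlap. Over all genes, 7.7% did not overlap. Duct cell markers (7.46 to 7.49 against 7.46 to 7.59) overlapped. No single array carried the module up or down. Members had their single highest value on each of the 6 arrays, from 2 genes on hIAPP_Tg replicate 6 to 6 on hIAPP_Tg replicate 5. The latter array also held the single lowest value of 7 genes, Casp12 and Apaf1 among them.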

How the data were processed

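RNA of isolated islets from 6 mice, 3 per genotype, was measured on Affymetrix mouse arrays (biotin-labelled cRNA from 150 ng of total RNA, per the labels). The deposited log2 values come from RMA (affy), per the submitters' processing notes, with versions not given in the sources used here. They run from 2.9 to 15.1 and are rounded to 0.1. The 64 control probe sets were left out. Gene names came from the platform annotation, looked up by Entrez number in the RefSeq table of GRCm38.p6, and 34945 probe sets had 1 symbol. Differences were fitted with limma 3.58.1 under R 4.3.3 (lmFit, then eBayes; two-sided; genotype the sole term) over all 45037 probe sets, with Benjamini-Hochberg adjustment and a threshold of 0.05. The fit was tested on simulated data. The planted differences there were larger than any difference of a member, so that test does not cover differences of the sizes reported for them. P-values set the difference between genotypes against the spread between mice of the same genotype, 3 in each. That spread is moderated by limma with the spread of all probe sets tested.

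The members and lists were chosen with earlier results of these data known, so no p is adjusted over a list alone. Every measured member is named. Of the wider lists, up to 4 genes per direction with an unadjusted p under 0.05 are named. Array values are printed by rule for Cdkn1a, Mdm2, Bcl2 and for members with such a p or without overlap. Those of further members were chosen after they were seen. Alternatives were quantile normalization, a filter on dim probe sets, an intensity trend, array weights, averaged probe sets, and leaving out each array. Promoter windows came from RefSeq and cover 28 of the 33 members. Of windows on opposite strands that overlap by 20 bases or more, all 1912 pairs were reverse complements, as strand-aware sequences should be. Plots used matplotlib 3.10.9 (Python 3.11.15).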

Additional observations from a re-analysis of the deposited data

How the results depend on the processing

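No member passed the adjusted threshold in limma under any of the 11 alternatives, the lowest adjusted p of a member being 0.352, and no gene of the wider lists did. At an unadjusted p under 0.05 the number of higher members was 0 with quantile normalization, 2 with array weights, and 1 to 3 when an array was left out. The number of lower members was 0 to 1 when an array was left out. Over all genes, the share higher at this p was 5.02% in the main fit, 4.05% with quantile normalization and 7.91% with array weights. With the filter on dim probe sets, the intensity trend and averaged probe sets it was 6.11%, 4.90% and 4.44%. The lower shares, in the same order, were 3.45%, 3.82%, 4.82%, 3.29%, 3.36% and 3.19%. Leaving out an array gave 3.91% to 7.13% higher and 3.06% to 4.60% lower. Among the further p53 pathway genes the higher ones numbered 1 with an intensity trend, 4 with array weights, 1 with averaged probe sets and 1 to 5 when an array was left out. The lower ones numbered 1 with the filter on dim probe sets and 1 to 3 when an array was left out. Among the further apoptosis genes the higher ones numbered 0 with quantile normalization, 1 each with the filter, the trend and averaged probe sets, 4 with array weights and 0 to 6 when an array was left out. The lower ones numbered 1 with the filter, 4 with array weights and 1 to 3 when an array was left out. The filter removes genes, 5 of the 31 members among them, and leaving out an array leaves 5 arrays. The cause of the other shifts was not tested. The median difference of the members was 0.033 with the filter and -0.033 to 0 when an array was left out. Bcl2 changed sign with averaged probe sets, to -0.10, since 4 of its 5 probe sets were lower. Sign changes with less than 0.1 on either side, the rounding step, were not counted. Over all probe sets, 13 passed, and 1 to 4 when an array was left out, 30 with quantile normalization and 26 with array weights.

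No paired analysis was possible because the replicate numbers, 1 to 3 and 4 to 6, are not shared between the genotypes. With 3 arrays per genotype and values rounded to 0.1, the unadjusted 95% interval of a member reached 0.25 to either side at the median. Larger differences also missed the adjusted threshold, among them 0.43 for Ddit4. Differences of genes under the array median may be compressed.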
